A study of Homo sapiens with 2 samples.

Results

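The 9 histone variant genes that lie outside the histone gene clusters were followed in chromatin accessibility data from U2OS cells, an established human osteosarcoma line. They are the H2A.Z genes H2AZ1 and H2AZ2, the H3.3 genes H3-3A and H3-3B, the macroH2A genes MACROH2A1 and MACROH2A2, H2AX, the linker histone gene H1-10 and the centromeric H3 gene CENPA. They were chosen by name, as 9 of 20037 protein-coding genes, and every accessible region from 5 kb before to 5 kb after their bounds was taken, which gave 52 regions. One library came from cells infected with a hairpin against Vanguard (sh-VNGD), a long non-coding RNA that the study's title calls responsive to glucose deprivation and essential for DNA repair. The other came from cells infected with a control hairpin (sh-ctrl). Both were U2OS cultures in the same serum-containing medium, and no drug or glucose withdrawal is named in the labels for either. ATAC-seq reads where the enzyme Tn5 can insert adapters into open DNA. It gives no RNA level, and how far Vanguard was depleted is not known from these data. With 1 library per group there was no test of any difference, and all intervals below are 95% intervals for counting error only. A site open in fewer cells and a site less open in every cell cannot be told apart.

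Many histone variants are made outside the bulk supply of replication-dependent histones and are placed into chromatin by dedicated chaperones and remodellers. H2A.Z is exchanged into nucleosomes beside promoters, H3.3 marks active genes and some repeats, and macroH2A carries a large globular macro domain and is known from repressed chromatin. H2AX is phosphorylated around DNA double-strand breaks, H1-10 encodes a linker histone that binds DNA between nucleosomes, and CENP-A, the product of CENPA, defines centromeres.

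All 9 genes had a start in the RefSeq promoter table of GRCh38.p14, which gives 250 bases before and 50 bases after each start. The 5 sequences below are shown because they hold, or lack, the short motifs that the starts of these genes share, and because the summits of the accessible regions at these starts fell inside or next to them. They run 5′ to 3′ and end just before the gene bounds, so copies outside these stretches are counted below but not printed. The H2AZ2 start of the promoter table lies inside the gene bounds, so its sequence stops 40 bases upstream of that start. Capitals mark CCAAT, the box bound by NF-Y, on either strand. They also mark TATAAA, the box bound by the general factor TBP. In CENPA they mark TTTGAA, a core of the cell cycle homology region that DREAM-type complexes bind, and in H2AZ2 its variant TTCGAA.
H2AZ1, chr4:99950276-99950475, minus strand: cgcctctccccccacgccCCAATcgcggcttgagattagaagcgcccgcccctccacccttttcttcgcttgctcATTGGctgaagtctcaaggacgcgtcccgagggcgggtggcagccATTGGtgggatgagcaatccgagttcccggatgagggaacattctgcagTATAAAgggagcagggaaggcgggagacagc
H2AZ2, chr7:44848127-44848327, minus strand: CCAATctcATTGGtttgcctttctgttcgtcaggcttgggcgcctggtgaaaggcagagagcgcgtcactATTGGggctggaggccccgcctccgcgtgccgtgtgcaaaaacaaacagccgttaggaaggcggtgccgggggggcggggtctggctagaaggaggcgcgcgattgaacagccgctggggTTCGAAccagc
H3-3B, chr17:75779780-75779979, minus strand: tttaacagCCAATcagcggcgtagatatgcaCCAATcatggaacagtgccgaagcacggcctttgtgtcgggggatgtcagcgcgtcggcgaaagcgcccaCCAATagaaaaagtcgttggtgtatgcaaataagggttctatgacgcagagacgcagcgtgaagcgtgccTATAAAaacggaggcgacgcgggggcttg
CENPA, chr2:26785856-26786055, plus strand: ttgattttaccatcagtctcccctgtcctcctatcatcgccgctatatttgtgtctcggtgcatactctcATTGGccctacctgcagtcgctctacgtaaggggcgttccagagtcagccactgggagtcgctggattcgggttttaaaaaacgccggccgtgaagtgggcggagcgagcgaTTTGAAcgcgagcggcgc
MACROH2A2, chr10:70052646-70052845, plus strand: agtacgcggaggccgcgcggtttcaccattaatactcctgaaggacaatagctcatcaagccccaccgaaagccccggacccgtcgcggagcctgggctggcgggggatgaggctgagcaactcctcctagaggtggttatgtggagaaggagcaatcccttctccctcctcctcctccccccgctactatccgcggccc
CCAAT was found in the start windows of 6 of the 9 genes, which were H2AZ1, H2AZ2, H3-3A, H3-3B, H2AX and CENPA, against 34.7% of 22199 protein-coding windows. H2AZ2, H3-3B and H2AX held 4 copies each, and 3.61% of all windows held at least 3. TATAAA was found in 4 genes, H2AZ1, H3-3B, H2AX and H1-10, beginning at -29 from the start in H3-3B and at -31 in the other 3, against 9.47% of all windows. TTTGAA occurred in H2AZ1, H2AX and CENPA (12.4% of all windows), and TTCGAA in H2AZ2 (1.54%). The GGGCGG box of SP1-like factors stood in 6 of the 9 windows and in 56.3% of all windows. The YY1-like AAGATGGC was found in H3-3A alone among the 9 genes (3.53% of all windows), and GCGGGAA, an E2F-type site, in CENPA alone (8.13%), where it overlapped a GGGCGG box. None of the 9 windows held TTTGGCGC (0.815% of all windows), CCGGAAG (12.8%), TGACGTCA (2.26%) or the NRF1 palindrome (1.5%). The MACROH2A2 window held none of the 11 motifs searched, and that of MACROH2A1 held only GGGCGG, at 2 places. In the 68 windows of replication-dependent histone genes, CCAAT was present in 85.3% and TATAAA in 66.2%. The median G and C content was 63.0% in the 9 windows and 62.3% in all windows.

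Each of the 9 genes had exactly 1 region that contained an annotated start, and each of these was called as a peak in both libraries. In 8 genes this was also the highest shared region near the gene. The exception was H1-10, a gene of 1516 bp, where a region over the far end of the gene was higher. The highest shared regions were used for the comparison between genes, and the height of a region is the number of tags over its summit, unscaled for depth. After removal of repeated positions 31326715 tags remained in sh-VNGD, against 22931980 in sh-ctrl, or 1.37 times as many. The share removed was 0.35 in sh-VNGD, against 0.56 in sh-ctrl, and its part in the ratios was not tested. After scaling to kept tags, the highest shared regions of 18273 genes had a median log2 ratio of sh-VNGD over sh-ctrl of -0.45, and their unscaled tags had a median log2 ratio of 0. Ratios at highest shared regions are therefore given relative to all genes, on the log2 scale, and equal the ratio of unscaled tags.

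None of the 9 genes differed by more than 1.5-fold between the libraries at its highest shared region. Lower values past that fold were found in 4.37% of all genes and higher values in 7.05%. Relative to all genes, the members ran from -0.29 in MACROH2A1 to 0.29 in MACROH2A2, with a median of -0.04. Their median tags were 102 in sh-VNGD and 107 in sh-ctrl, against 77 and 80 in all genes. High regions were lower as a class, as given below, and these ratios are not adjusted for height. No counting interval of the 9 genes lay wholly below or wholly above the median of all genes, as 6.32% (below) and 4.43% (above) of all genes did. In sh-VNGD the order from the highest was H3-3B, CENPA, H2AX, H2AZ1, H2AZ2, H1-10, MACROH2A2, MACROH2A1 and H3-3A, and the counting intervals of neighbours in that order overlapped throughout. The order in the control library was CENPA, H3-3B, H2AX, H2AZ2, H2AZ1, H1-10, MACROH2A1, H3-3A and MACROH2A2. There the intervals of neighbours overlapped except between H2AX, at 158 tags (134 to 185), and H2AZ2, at 109 tags (89.5 to 131).

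**Figure D1:**
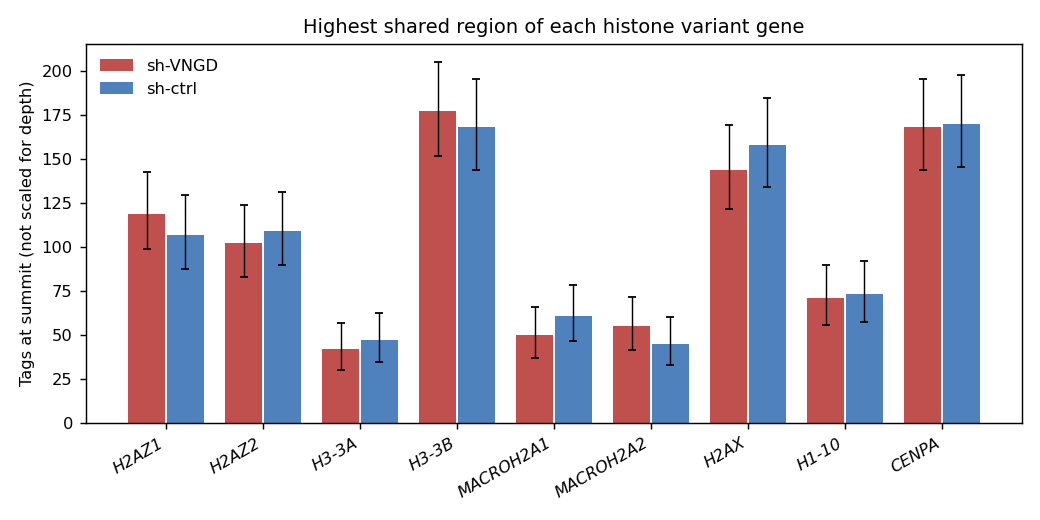
Tags at the summit of the highest shared region of each of the 9 genes, unscaled for depth, in sh-VNGD (red, left of each pair) and sh-ctrl (blue, right), with exact Poisson 95% intervals as error bars. The intervals of the libraries overlap in each gene, and H3-3B, CENPA and H2AX stand highest in both.

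The H2A.Z genes encode nearly identical proteins and lie on different chromosomes. H2AZ1 (chromosome 4, 99948088 to 99950275, minus strand) had 119 tags in sh-VNGD, against 107 in sh-ctrl, at its start region, chr4:99950230-99950974, or 0.15 relative to all genes (-0.24 to 0.54). H2AZ2 (chromosome 7, 44826889 to 44848126, minus strand) had 102 tags in sh-VNGD, against 109 in sh-ctrl, at chr7:44847549-44848741, or -0.10 (-0.50 to 0.31). The intervals of these genes overlap widely, so their ratios were not separable at this depth. The summits at H2AZ1 lay at -223 bases from the start in sh-VNGD, against -195 in sh-ctrl, upstream of its outermost CCAAT box, which begins at -182. Both H2A.Z starts are paired with the start of a divergent long non-coding RNA, H2AZ1-DT and H2AZ2-DT, and the same region holds both starts.

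Away from the start, H2AZ1 had a further region inside the gene, with 64 tags in sh-VNGD, against 74 in sh-ctrl. A region beyond its far end, with 61 tags in sh-VNGD, against 69 in sh-ctrl, contained a start of the neighbouring gene DNAJB14. H2AZ2 had no shared region other than its start. Inside H2AZ2, 3 low peaks of 13, 15 and 17 tags were called in sh-VNGD only, and 1 peak of 14 tags in sh-ctrl only.

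H3-3A and H3-3B encode the same H3.3 protein from unlike genes, and the tags at their starts differed in both libraries. H3-3B (chromosome 17, 75776434 to 75779779, minus strand) had 177 tags in sh-VNGD, against 168 in sh-ctrl, at chr17:75779683-75780198, or 0.08 relative to all genes (-0.24 to 0.39). H3-3A (chromosome 1, 226061831 to 226072019, plus strand) had 42 tags in sh-VNGD, against 47 in sh-ctrl, at chr1:226061754-226063159, a region that spans all 4 of its annotated starts, or -0.16 (-0.80 to 0.47). Among all genes with a ratio, H3-3B stood at percentile 98.0 in sh-VNGD, against 95.3 in sh-ctrl, by tags, and H3-3A at percentile 23.2 in sh-VNGD, against 28.1 in sh-ctrl. By the authors' fold enrichment over local background, which includes the region's own tags, H3-3B was not the higher gene. It had 7.01 in sh-VNGD, against 6.17 in sh-ctrl, while H3-3A had 7.49 in sh-VNGD, against 7.41 in sh-ctrl. The H3-3A region also holds the start of the divergent transcript H3-3A-DT.

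H3-3B had the highest local background of the 9 genes in both libraries. Without a control, the peak caller takes this background from a 10 kb window of the same library. It therefore includes tags of the region itself and of its neighbours, and fold enrichment is not independent of them. At the H3-3B start the background was 25.4 tags in sh-VNGD, against 27.4 in sh-ctrl. That is percentile 99.6 of all genes in sh-VNGD, against 99.5 in sh-ctrl. These and all background values below include 1 added tag, which also enters their ratios. A region that began just downstream of the start had 102 tags in sh-VNGD, against 66 in sh-ctrl. Its log2 ratio was 0.49 (0.03 to 0.96) relative to the median of all 86204 shared regions near genes, which was -0.31 after scaling to kept tags and is the level used for single regions from here on. A region at -4929 bases from the start, with 137 tags in sh-VNGD, against 139 in sh-ctrl, stood at -0.16. Beyond the far end of H3-3B, shared regions had 68 tags in sh-VNGD, against 83 in sh-ctrl, and 47 in sh-VNGD, against 57 in sh-ctrl. Inside H3-3A, a region 7943 bases from the innermost start had 20 tags in sh-VNGD, against 12 in sh-ctrl, with an interval spanning 0 (-0.50 to 1.77).

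The macroH2A genes are the longest of the 9 and held 25 of the 52 regions. MACROH2A1 (chromosome 5, 135334381 to 135399887, minus strand) had 50 tags in sh-VNGD, against 61 in sh-ctrl, at chr5:135398990-135399596, which holds the inner of its 2 annotated starts, or -0.29 relative to all genes (-0.86 to 0.28). A neighbouring region 969 bases into the gene had 52 tags in sh-VNGD, against 49 in sh-ctrl. MACROH2A2 (chromosome 10, 70052846 to 70112282, plus strand) had 55 tags in sh-VNGD, against 45 in sh-ctrl, at its start, chr10:70052382-70053098, or 0.29 (-0.31 to 0.89). The start of MACROH2A2 had the lowest local background of the 9 genes, at 4.0 tags in sh-VNGD, against 3.28 in sh-ctrl, each with the 1 added tag.

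One region inside MACROH2A1 differed far more than any other region of the 9 genes. It lay at chr5:135336912-135337380, 62.0 kb from the start and 2.53 kb inside the far bound of the gene, and had 80 tags in sh-VNGD, against 16 in sh-ctrl, a raw ratio of 5. Its log2 ratio relative to all shared regions was 2.18 (1.40 to 3.06). Its summits lay 62046 bases from the start in sh-VNGD, against 62010 in sh-ctrl, within the same stretch of DNA. The authors' fold enrichment over local background was 13.1 in sh-VNGD, against 3.41 in sh-ctrl, while the local background was 6.20 tags in sh-VNGD, against 4.98 in sh-ctrl. Of 86204 shared regions near genes, 6 had a ratio as high, this one included, and 4 of the 13835 with a mean of 30 to 50 tags did. It was singled out after its values were seen, 1 library stands on each side, and its values are a description. With peaks of a −log10 q of at least 10 only, it was no longer shared. In sh-VNGD it was higher than either region at the start of MACROH2A1, and in sh-ctrl it was lower than both. The bounds of the long non-coding RNA PITX1-AS1 also cover it, and the gene table gives no exons.

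**Figure D2:**
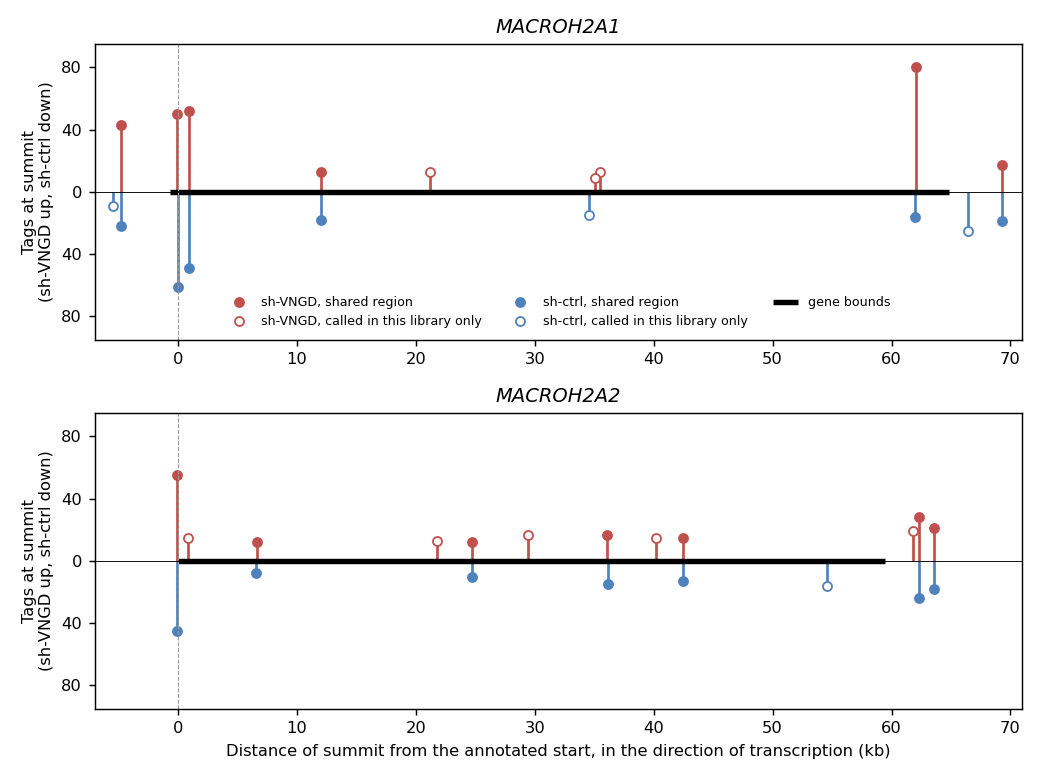
Tags at each summit of MACROH2A1 (top) and MACROH2A2 (bottom) against distance from the annotated start in kb, with sh-VNGD drawn upward and sh-ctrl downward. Filled circles are shared regions, open circles are peaks called in 1 library only, and the thick line spans the gene bounds. The region with 80 tags in sh-VNGD, against 16 in sh-ctrl, stands near the far end of MACROH2A1.

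A further region of MACROH2A1 was also past 1.5-fold. It lay at -4773 bases from the start and had 43 tags in sh-VNGD, against 22 in sh-ctrl, or 0.83 (0.06 to 1.64). A region 12028 bases inside the gene had 13 tags in sh-VNGD, against 18 in sh-ctrl, or -0.61 (-1.76 to 0.50), the lowest ratio among the shared regions of the 9 genes and one resting on few tags. In MACROH2A2, 4 shared regions inside the gene had 12 to 17 tags in sh-VNGD, against 8 to 15 in sh-ctrl. A pair of regions beyond its far end, inside the bounds of the neighbour AIFM2, had 28 and 21 tags in sh-VNGD, against 24 and 18 in sh-ctrl. Relative to all shared regions, the 7 shared regions of MACROH2A2 ran from 0.04 to 0.45, with every interval spanning 0.

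H2AX (chromosome 11, 119093874 to 119095465, minus strand) had 144 tags in sh-VNGD, against 158 in sh-ctrl, at chr11:119094777-119095920, or -0.13 relative to all genes (-0.47 to 0.20). Its local background was also high, at 19.0 tags in sh-VNGD, against 19.3 in sh-ctrl. A peak of 47 tags inside the gene was called in sh-VNGD only, at a fold enrichment of 2.68. The bounds of DPAGT1 cover H2AX, and a region at -4929 bases from the H2AX start, inside DPAGT1, had 90 tags in sh-VNGD, against 66 in sh-ctrl. That region stood at 0.31 (-0.16 to 0.79) relative to all shared regions.

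H1-10 (chromosome 3, 129314771 to 129316286, minus strand) had 71 tags in sh-VNGD, against 73 in sh-ctrl, at chr3:129314759-129315871, over the far part of the gene, or -0.04 relative to all genes (-0.53 to 0.45). Its start region, chr3:129316137-129316914, was lower, with 30 tags in sh-VNGD, against 39 in sh-ctrl. Relative to all shared regions, the start stood at -0.52 (-1.25 to 0.21), the lowest of the 9 start regions. The antisense gene H1-10-AS1 begins in the same region.

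CENPA (chromosome 2, 26786056 to 26794589, plus strand) had one of the highest starts of the 9 genes in either library. At chr2:26785512-26786778 it had 168 tags in sh-VNGD, against 170 in sh-ctrl, or -0.02 relative to all genes (-0.33 to 0.30). The summits lay at -169 bases from the start in sh-VNGD, against -161 in sh-ctrl, between its CCAAT boxes at -205 and -130, of which the second is in the sequence above. Its fold enrichment was 14.7 in sh-VNGD, against 17.6 in sh-ctrl, the highest of the 9 genes in both libraries. A region beyond its far end had 25 tags in sh-VNGD, against 19 in sh-ctrl, at 0.26 (-0.66 to 1.20).

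Over all 9 genes, 30 of the 52 regions were shared, 14 were called in sh-VNGD only and 8 in sh-ctrl only. By peaks, 32 of 46 sh-VNGD peaks, or 69.6% (Wilson 95% interval 55.2 to 80.9), overlapped a sh-ctrl peak, against 54.1% for all gene windows. Of the 38 sh-ctrl peaks, 30 overlapped a sh-VNGD peak, or 78.9% (63.7 to 88.9), against 72.8% for all gene windows. The unshared regions had 9 to 47 tags in sh-VNGD (median 15), against 9 to 43 in sh-ctrl (median 18.5). The highest unshared ones lay in the high backgrounds of H2AX and H3-3B. Peak lists give no value where no peak was called, so these regions have no ratio.

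Of the 30 shared regions, 1 was lower by more than 1.5-fold relative to all shared regions and 3 were higher, against 9.82% lower and 11.7% higher among all shared regions near genes. The region called lower was the one of 13 and 18 tags inside MACROH2A1. Those called higher were the regions of MACROH2A1 with 80 and 43 tags in sh-VNGD and the region inside H3-3A with 20. Of all these, only the region with 80 tags was also past 1.5-fold by the authors' fold enrichment. The 9 start regions ran from -0.52 to 0.15, with a median of -0.23 and with 7 below 0. High regions were lower as a class, with a median of -0.20 for all regions of 100 tags or more and -0.15 for those of 50 to 100. The 11 shared regions inside the genes had a median of 0.07 and ran from -0.61 to 2.18, and the 10 outside ran from -0.43 to 0.83.

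**Figure D3:**
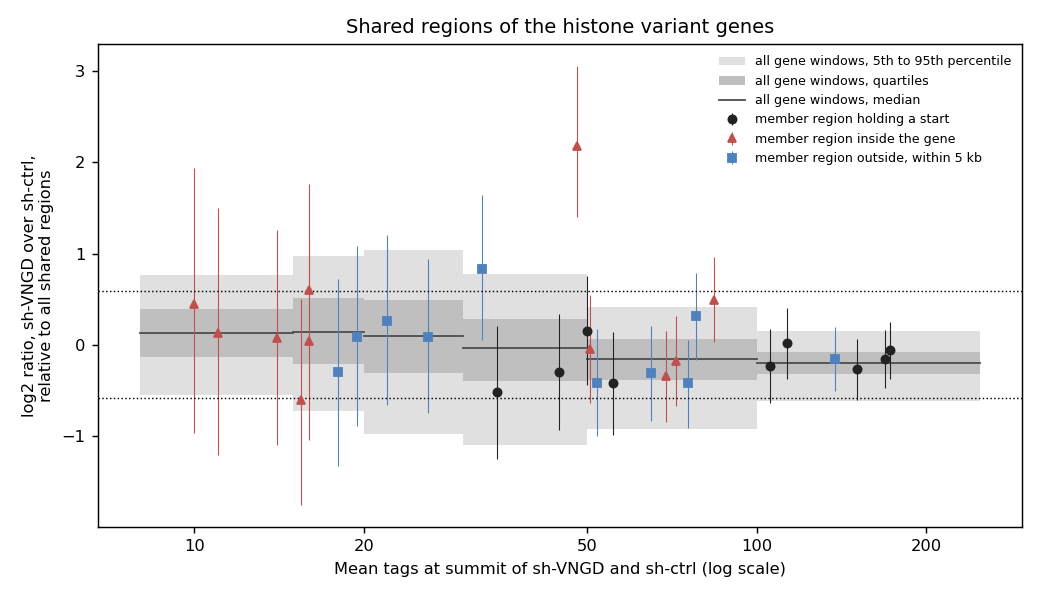
The log2 ratio of sh-VNGD over sh-ctrl, relative to all shared regions, against the mean number of tags (log scale) for the 30 shared regions of the 9 genes, with counting intervals. Grey bands give the quartiles and the 5th to 95th percentile of all shared regions near genes by height, and dotted lines mark 1.5-fold. The region inside MACROH2A1, at 2.18, is the only one whose counting interval lies wholly above the 5th to 95th percentile band of its height.

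The ratio at the highest shared region depended on the measure for some genes. By the authors' fold enrichment over local background, MACROH2A1 stood at -0.58 relative to all genes, close to 1.5-fold, with 6.75 in sh-VNGD, against 11.0 in sh-ctrl. Its local background was 7.56 tags in sh-VNGD, against 5.62 in sh-ctrl. H2AZ1 went the other way, at 0.44 by fold enrichment, with 8.36 in sh-VNGD, against 6.72 in sh-ctrl. Its local background was 14.4 tags in sh-VNGD, against 16.1 in sh-ctrl. Relative to all genes, no member passed 1.5-fold by fold enrichment or by local background. Relative to all shared regions, the start region of MACROH2A1 was lower past 1.5-fold by fold enrichment. Its log2 ratio by that measure was -0.71, against a median of -0.08 over all shared regions.

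**Figure D4:**
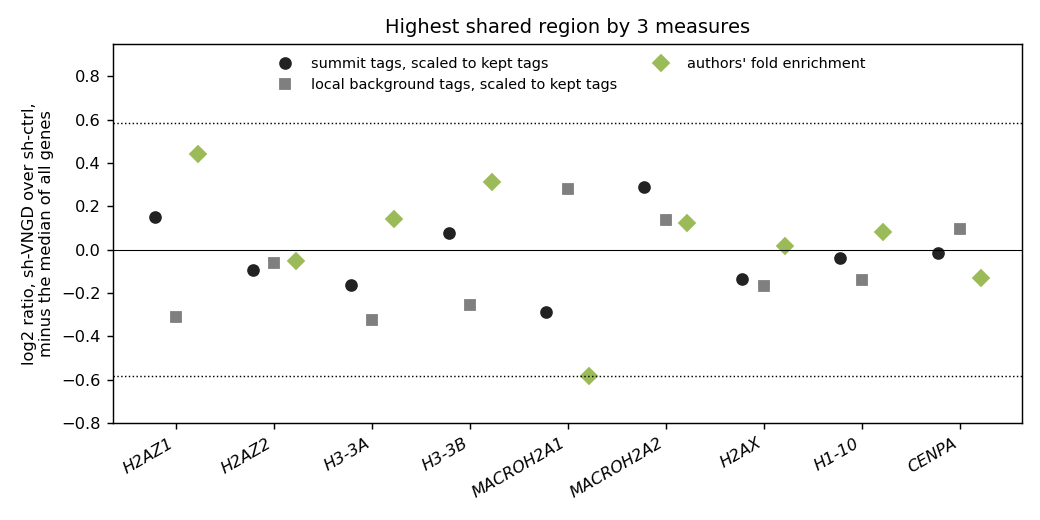
The log2 ratio of sh-VNGD over sh-ctrl at the highest shared region of each gene, minus the median of all genes, for summit tags (circles), local background (squares) and the authors' fold enrichment (diamonds). Dotted lines mark 1.5-fold, and MACROH2A1 by fold enrichment, at -0.58, is the value nearest to them.

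Genes that deposit, remove, bind or modify these variants, called deposition genes for short, were examined in the same way, 33 in all. Their median was -0.17 relative to all genes, 2 of 33 were lower past 1.5-fold and none was higher, against 4.37% lower and 7.05% higher among all genes. The lower pair were YEATS4, a reader subunit of the H2A.Z-depositing complexes, with 79 tags in sh-VNGD, against 129 in sh-ctrl, at -0.71 (-1.13 to -0.29), and CABIN1, of the H3.3-depositing HIRA complex, with 91 in sh-VNGD, against 145 in sh-ctrl, at -0.67 (-1.07 to -0.28). The highest were the H3-H4 chaperone gene ASF1B, with 52 in sh-VNGD, against 39 in sh-ctrl, at 0.42 (-0.21 to 1.05), and DAXX, an H3.3 chaperone gene, with 27 in sh-VNGD, against 22 in sh-ctrl, at 0.30 (-0.57 to 1.18). By variant, the medians were -0.20 for 11 H2A.Z genes, -0.12 for 9 H3.3 genes, -0.06 for 6 CENP-A genes, -0.26 for 4 H2AX genes and -0.03 for 3 macroH2A genes. The 33 genes had median tags of 91 in sh-VNGD and 103 in sh-ctrl, against 77 and 80 in all genes. High regions were lower as a class, as given above, and these medians are not adjusted for height.

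Replication-dependent histone genes, the nearest relatives, had a median of -0.43 relative to all genes, beside -0.04 for the 9 variant genes. Median tags were 66 in sh-VNGD and 91 in sh-ctrl in the replication-dependent genes, against 102 and 107 in the variant genes. These medians are not adjusted for height. Of 67 such genes with a ratio, 21 were lower past 1.5-fold and 0 higher, against 4.37% lower and 7.05% higher among all genes. However, they share 34 regions, of which 11 were lower. The lowest was H3C11, with 27 tags in sh-VNGD, against 74 in sh-ctrl, at -1.45 (-2.15 to -0.80), followed by the region shared by H2AC7, H2BC7, H3C4 and H4C5, with 52 in sh-VNGD, against 109 in sh-ctrl, at -1.07 (-1.57 to -0.58). The highest were H4C14, with 60 in sh-VNGD, against 58 in sh-ctrl, at 0.05, and the region of H3C13 and H2BC18, with 50 in sh-VNGD, against 51 in sh-ctrl, at -0.03. The scaled local background had a median log2 ratio of -1.11 in the replication-dependent genes, -0.44 in the variant genes and -0.30 in all genes. By the authors' fold enrichment over that background the direction turned, with a median log2 ratio, not set relative to all genes, of 0.19 in the replication-dependent genes, -0.05 in the variant genes and -0.13 in all genes. That background includes tags of the regions themselves and of their neighbours in the clusters, so these measures are not independent. The lists are described by counts and medians, and no test between them was made.

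**Figure D5:**
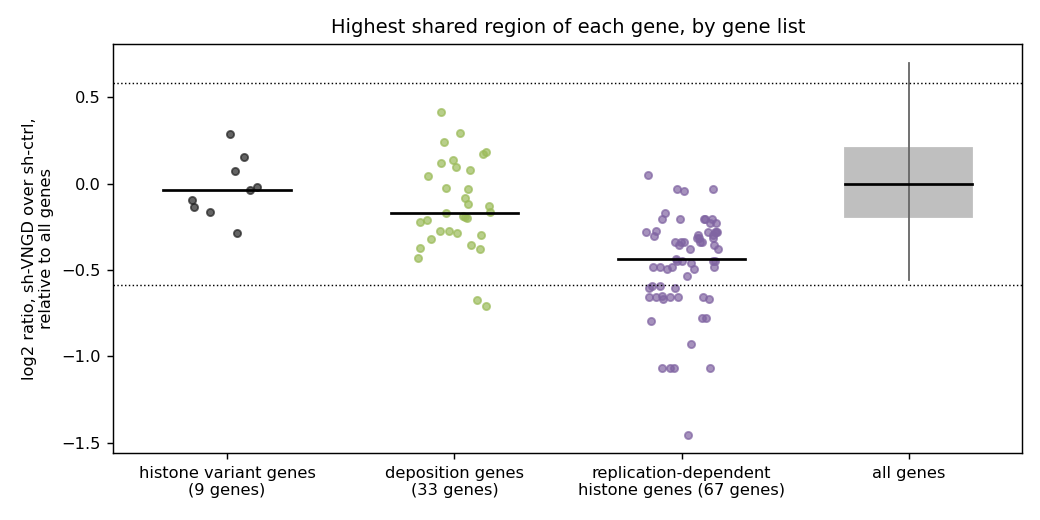
The log2 ratio of sh-VNGD over sh-ctrl at the highest shared region, relative to all genes, for the 9 variant genes, 33 deposition genes and 67 replication-dependent histone genes, each point a gene and each bar a median. The grey box and line give the quartiles and the 5th to 95th percentile of all genes, and dotted lines mark 1.5-fold. The 9 variant genes lie between -0.29 and 0.29, and 21 replication-dependent genes lie below the lower dotted line, as do 4.37% of all genes.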

How the data were processed

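ATAC-seq libraries of U2OS cells, 1 per group, were grouped by the treatment in the labels. Peaks were called on each library separately, without a control, by MACS 2.1.0.20150731 according to the deposited lists, while MACS2 2.1.2 stands in the submitters' processing notes, beside Bowtie2 2.2.5, deepTools and the builds hg38 and GRCh38.p13. Per the file headers, the shift was -100 bp, the extension 200 bp, the q cutoff 0.05 and the background window 10000 bp, with at most 1 tag for each position. Read filters before peak calling are not given in the sources used here. Kept tags were 31326715 of 48164322 read in sh-VNGD and 22931980 of 51628228 in sh-ctrl. The deposited pileup is a signal, the whole number of tags over a summit, not scaled for depth. Each peak also carries the authors' fold enrichment, a ratio to local background, and their −log10 p-value and −log10 q-value. The second deposited format repeats the −log10 q and the pileup line by line.

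Peaks on assembled chromosomes of both libraries were merged into regions, shared if both libraries had a peak in it (1 bp). Gene bounds, starts and sequences came from RefSeq tables of GRCh38.p14, in which all 9 genes matched. Local background was taken as the pileup plus 1 over the fold enrichment, which gives the background plus 1 tag. Its lowest values near the 9 genes were 2.92 in sh-VNGD and 2.40 in sh-ctrl, against genome backgrounds of 1.92 and 1.40. For each gene, the shared region with the highest summed scaled pileup within 5 kb was used. Log2 ratios of scaled pileups have exact Clopper-Pearson intervals, and pileups exact Poisson intervals, both at 95% and for counting error only. Nearby tags are not independent molecules. Simulated counts were used to check the interval, with a result that is not reported here, so this check adds no support. Named were the 9 genes and the 2 highest and 2 lowest of each list. The rule also named the genes nearest to the member farthest from the median of all genes, a result that is not reported here. The members and lists were chosen with earlier results of these data known. Alternatives changed the scaling, measure, q cutoff, overlap, window, minimum height and choice of region. Python 3.11.15, pandas 2.3.3 and scipy 1.17.1 were used.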

Additional observations from a re-analysis of the deposited data

How the results depend on the processing

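Relative to all genes, none of the 9 genes passed 1.5-fold in either direction at its highest shared region under any of the 9 alternatives. The median over the 9 genes ran from -0.14 to 0.08. Because ratios are relative to all genes, scaling to kept tags, to all tags read or to none gave identical values. Among single values, 84 of 88 stayed within their counting interval. The others were those by local background, -0.31 for H2AZ1, -0.26 for H3-3B, 0.28 for MACROH2A1 and 0.04 for the region inside MACROH2A1. This count is a weak check. Scaling cancels, and the overlap, window, q and minimum height settings kept each gene's highest shared region, so only the median could move. Shared regions past 1.5-fold, 1 lower and 3 higher by pileup, numbered 0 lower and 0 higher by local background. By fold enrichment they again numbered 1 lower and 3 higher, but only the region inside MACROH2A1 was called by both measures. The other higher ones were then the regions of H3-3B with 102 tags in sh-VNGD and of H2AX with 90. The lower one was the start region of MACROH2A1. With a −log10 q of at least 10, 19 regions of the 30 were shared, of which 0 were lower and 1 higher, and the region inside MACROH2A1 was then no longer shared. When regions needed 30 tags in 1 of the libraries, 0 were lower and 3 higher. The region inside H3-3A then dropped out, and the region of H3-3B with 102 tags in sh-VNGD was called higher. The region inside MACROH2A1 stood at 2.02 by fold enrichment and 2.30 with the minimum of 30 tags. Using the shared region nearest to a start, chosen after seeing the data, put H1-10 at -0.39 and the median at -0.11. No paired analysis was possible because each group had 1 library. Shared regions under 20 tags in both libraries had intervals of over 1 log2 unit on each side, and differences of 1.5-fold were not detectable there.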

Other observations

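Markers of the labelled cell type were looked at within 5 kb of their genes. Of 6 osteoblast genes, 5 had a shared region, with the highest at SP7, an osteoblast transcription factor gene, with 136 tags in sh-VNGD, against 163 in sh-ctrl. RUNX2, the lineage's main regulator gene, had 96 in sh-VNGD, against 131 in sh-ctrl. ALPL had 80 in sh-VNGD, against 75 in sh-ctrl. COL1A1 had 75 in sh-VNGD, against 94 in sh-ctrl, and SPP1 had 70 in sh-VNGD, against 79 in sh-ctrl. BGLAP had no shared region, with 19 tags in sh-VNGD, against 32 in sh-ctrl in separate regions. The 3 mesenchymal genes had a shared region as well. TWIST1 had 41 tags in sh-VNGD, against 12 in sh-ctrl. VIM had 91 in sh-VNGD, against 94 in sh-ctrl, and COL1A2 had 29 in sh-VNGD, against 24 in sh-ctrl. All 7 genes of other cell types also had a shared region, among them EPCAM with 108 in sh-VNGD, against 139 in sh-ctrl, while ALB had 16 in sh-VNGD, against 11 in sh-ctrl. Accessibility near a gene thus did not separate the labelled cell type from others here.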
